A study of Mus musculus with 6 samples.

Results

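The genes described here are the cadherins, protocadherins, Fat, Dachsous and Celsr genes of the mouse, in RNA sequencing of embryonic esophageal epithelium. They were chosen by symbol: the numbered Cdh genes, all Pcdh genes, Fat1 to Fat4, Dchs1, Dchs2 and Celsr1 to Celsr3, leaving out the most studied classical cadherins Cdh1, Cdh2 and Cdh3. The rule found 99 of the 23284 gene symbols in the deposited counts, and no measured value entered it. The family itself was chosen with earlier results of these data known. The p63KO group held 3 libraries from E12.5 embryos homozygous for Trp63-CreERT2, which the labels call Trp63 knockouts, and the control group held 3 libraries from littermate controls, which the labels also call WT. In both groups the epithelium was separated from the esophagus, and no further allele and no treatment is listed. The sources used here do not say whether 1 library came from 1 embryo or from a pool, and the p-values therefore measure only how these libraries vary.

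Cadherins are surface proteins that bind cadherins of neighbouring cells in the presence of calcium. Classical cadherins are tied to the actin cytoskeleton through catenins, while Fat and Dachsous bind each other across cell borders and feed into planar cell polarity and the Hippo pathway, and the seven-pass Celsr proteins are core planar cell polarity components. Clustered protocadherins are encoded in the alpha, beta and gamma gene clusters and are best known for giving neurons their surface identity, and p63 is a transcription factor of the p53 family that the stratified epithelium of the esophagus requires.

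Library totals were 13335328 to 16506401 counts in p63KO and 16948971 to 20093838 counts in control epithelium, so that 3 counts corresponded to 0.153 to 0.223 CPM (counts scaled to the size of the library, with the trimmed mean of M-values as scaling factor). Trp63, the targeted gene, had 76.7, 62.2 and 75.4 CPM in p63KO and 583.9, 674.1 and 550.6 CPM in control libraries, or 11.9% of the control level. The library of control replicate 3 stood apart: 58 genes were above 5 CPM in it and more than 4 times the highest other library, against 2 genes in control replicate 1 and 0 in each of the other 4 libraries. Among these genes was 1 member of the family, Cdh17. Summed markers of the intestinal epithelium, a list added after the data were seen, reached 196.7 CPM in control replicate 3 against 19.8 to 25.3 CPM in p63KO libraries and 29.0 CPM in each of the other 2 control libraries.

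Of the 99 genes, 95 had at least 1 count and 69 passed the low-count filter. Between p63KO and control epithelium 7 of the 69 tested genes rose, 13 fell and 49 did not pass an adjusted p of 0.05 (edgeR's quasi-likelihood test, Benjamini-Hochberg adjustment over all 13849 tested genes). That is 29.0% of the tested members, near the 29.6% called among all tested genes, of which 15.3% were higher and 14.3% lower in p63KO. The groups did not overlap in CPM for 29 of the 69 genes, against 44.1% of all tested genes, and 12 of the 69 differed by at least 2-fold past the threshold, against 11.6% of all tested genes. The median log2 fold change of the 69 genes was -0.07, against -0.01 over all tested genes. The family as a whole was thus called about as often as all tested genes. Without control replicate 3, the library that stood apart, 21 members were called, among them all 20.

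Outside the 3 protocadherin clusters, 18 of 28 tested genes were called, or 64.3%, with 7 higher and 11 lower. Inside the clusters 2 of 41 tested genes were called, or 4.88%, both lower. Among all tested genes 29.6% were called. The median standard error of a log2 fold change was 0.26 outside and 0.23 inside the clusters, against 0.11 over all tested genes. All 3 Celsr genes and all 5 Fat and Dachsous genes were called. Among the called members Cdh20 passed the filter only through p63KO and Cdh6 only through control libraries, so that they had to differ and their calls support nothing. Both are counted in the 18 of 28 genes outside the clusters. Of all 20 called members, inside and outside the clusters, 18 remain without them. These counts hold for tested genes and not for all members. In bulk RNA, fewer cells of a type and less RNA per cell cannot be told apart at any of these genes.

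**Figure D1:**
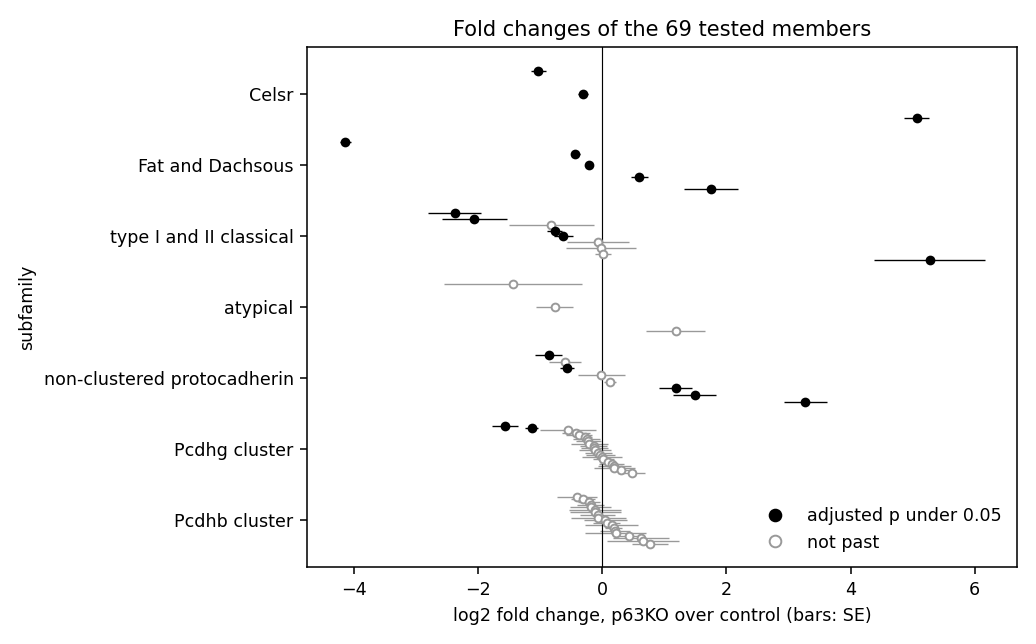
Log2 fold change of p63KO over control for each of the 69 tested members (points, with bars of 1 standard error), grouped by subfamily. Fat2 lies at -4.14 and Celsr3 at 5.06, while the tested Pcdhb genes lie between -0.41 and 0.77.

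The Fat genes moved in opposite directions. Fat2, a giant cadherin known from planar movement of epithelial cells in the fly, was the most reduced tested member. It had 6.08, 5.82 and 5.42 CPM in the p63KO libraries, against 107.9, 96.3 and 102.6 CPM in the control libraries. Every p63KO library was far below every control library, and the fitted p63KO level was 5.67% of control (log2 fold change -4.14, SE 0.09, adjusted p = 3.22e-08, edgeR). Fat1, which in mammals acts on actin and on cell contacts, had 492.5, 495.8 and 520.6 CPM in p63KO and 587.0, 612.6 and 550.0 CPM in control libraries. The groups did not overlap, but the difference was small (log2 fold change -0.21, SE 0.06, adjusted p = 0.0316, edgeR). Its call was lost on leaving out any of 5 libraries, p63KO replicate 1, 2 or 3 or control replicate 1 or 2, with adjusted p of 0.0557 to 0.125.

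Fat4, the mammalian counterpart of the fly Fat receptor and the binding partner of Dachsous, was higher in p63KO, while its ligand Dchs1 was lower. Fat4 had 32.5, 30.5 and 22.7 CPM in p63KO and 19.9, 18.3 and 18.5 CPM in control libraries, with no overlap (log2 fold change 0.60, SE 0.14, adjusted p = 0.0102, edgeR). Dchs1 had 63.8, 64.1 and 55.2 CPM in p63KO and 82.3, 85.4 and 80.1 CPM in control libraries, again with no overlap. The Dchs1 log2 fold change was -0.44 (SE 0.08, adjusted p = 0.002, edgeR). Fat3, known from the shaping of amacrine neurons in the mouse retina, had 5.13, 11.8 and 7.43 CPM in p63KO and 2.95, 1.02 and 3.30 CPM in control libraries. The groups did not overlap and p63KO replicate 2 was the highest. The Fat3 log2 fold change of 1.75 (SE 0.44, adjusted p = 0.015, edgeR) became 1.40 with an adjusted p of 0.0548 without that library. Dchs2 was covered by the rule, but no such gene symbol was found in the deposited counts.

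Celsr3, the member of the Celsr family best known from axon tracts of the nervous system, rose more than any other member with counts in every library. It had 40.1, 33.9 and 32.7 CPM in p63KO, against 0.913, 0.817 and 1.47 CPM in control libraries. The groups were far apart, with a 33.5-fold difference (log2 fold change 5.06, SE 0.21, adjusted p = 3.64e-07, edgeR). Celsr1 and Celsr2, the members prominent in epithelia, fell. Celsr1 had 478.3, 460.9 and 471.3 CPM in p63KO and 631.4, 589.5 and 527.8 CPM in control libraries (log2 fold change -0.31, SE 0.07, adjusted p = 0.0116, edgeR). Celsr2 had 150.7, 146.5 and 120.3 CPM in p63KO and 313.7, 296.9 and 240.5 CPM in control libraries (log2 fold change -1.03, SE 0.11, adjusted p = 0.000145, edgeR). Neither gene overlapped between the groups. The call of Celsr1 was narrowly lost without p63KO replicate 2, at an adjusted p of 0.0509 and a log2 fold change of -0.27.

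Within the Celsr family Celsr3 made up 5.50 ± 0.43% of the counts in p63KO, against 0.127 ± 0.056% in control epithelium (SD, n = 3 each). The shares of single libraries had exact 95% binomial intervals within 4.77 to 6.45% in p63KO and within 0.0527 to 0.282% in control libraries, which cover counting error only. The exact two-sided permutation p was 0.1, the smallest that 3 against 3 libraries allow. The summed CPM of the 3 Celsr genes was 644.9 ± 22.7 in p63KO and 867.7 ± 89.7 in control epithelium (SD, n = 3 each). All 8 markers of a list of neuroendocrine cells rose, with summed levels of 407.7 to 515.3 CPM in p63KO against 2.66 to 7.30 CPM in control libraries. Of these markers Neurog3, Neurod1, Chga, Chgb and Scg3 passed the low-count filter only through p63KO libraries, so they had to differ and their calls support nothing. Insm1, with 19, 10 and 17 counts in control libraries, also needed p63KO libraries to pass, and its rise is given as a description. For a list of neurons and neural crest 8 of 9 markers were tested and 4 rose, with sums of 159.4 to 209.9 CPM against 17.9 to 27.7 CPM in control libraries. Among these 4, Elavl3 needed p63KO libraries to pass the filter, with 12, 15 and 9 counts in control libraries, and its rise is given as a description. The part of such cells in the levels of Celsr3 and other members was not tested.

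The start of Celsr3 is shown because the gene had the largest rise among members counted in every library. RefSeq promoter windows (GRCm38.p6, 250 bases before to 50 bases after a gene's start) matched 28 of the 99 members. The windows were searched on both strands for TTCAGCACC, the left part of the neuron-restrictive silencer element, which the repressor Rest is known to bind. Among all 32851 windows 0.371% held it, and the members with it were Celsr3 and Cdh9, of which Cdh9 did not pass the low-count filter. In the Celsr3 window, chr9:108825795-108826094 on the plus strand, the capitals mark TTCAGCACC, whose first base is at position -127 from the start. The windows were also searched on both strands for the paired core of a p53 family response element, which is CAAG, its reverse complement CTTG, the palindrome CATG or the palindrome CTAG, followed after 6 bases by any of these. Of all windows 7.22% held such a pair, and among the members only that of Cdh8, a gene that fell (described with the classical cadherins), at chr8:99416422-99416721 on the minus strand. Capitals mark the pair, whose first base is at position -58. A match describes letters only and shows no binding.
Celsr3: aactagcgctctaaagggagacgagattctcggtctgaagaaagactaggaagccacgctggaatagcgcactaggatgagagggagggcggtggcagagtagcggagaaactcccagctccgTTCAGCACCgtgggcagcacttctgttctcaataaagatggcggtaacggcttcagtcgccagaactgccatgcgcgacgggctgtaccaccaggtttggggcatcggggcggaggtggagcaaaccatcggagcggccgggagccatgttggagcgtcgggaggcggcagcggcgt
Cdh8: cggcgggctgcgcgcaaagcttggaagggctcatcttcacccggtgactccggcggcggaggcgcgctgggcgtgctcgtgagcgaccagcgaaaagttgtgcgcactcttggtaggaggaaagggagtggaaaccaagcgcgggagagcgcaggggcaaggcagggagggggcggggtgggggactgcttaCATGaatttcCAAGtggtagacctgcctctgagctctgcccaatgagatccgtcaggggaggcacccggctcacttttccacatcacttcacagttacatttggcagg

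Genes that work with the Celsr proteins in planar cell polarity changed in both directions. Of 19 listed and tested genes 2 rose, 9 fell and 8 did not pass, with a median log2 fold change of -0.36. The called share was 57.9%, against 29.6% of all tested genes. This and the other partner lists were chosen with earlier results of these data known, so their called shares are descriptions only. The core genes Prickle1 and Prickle2 rose. Prickle2 had 25.8, 30.0 and 32.2 CPM in p63KO and 8.75, 8.53 and 7.36 CPM in control libraries (log2 fold change 1.83, SE 0.13, adjusted p = 8.27e-06, edgeR), and Prickle1 had a log2 fold change of 1.37 (SE 0.18). Fzd6, a Frizzled receptor of the core complex, had 47.6, 40.2 and 52.2 CPM in p63KO and 111.6, 113.7 and 121.2 CPM in control libraries (log2 fold change -1.31, SE 0.09, adjusted p = 9.58e-06, edgeR). Ankrd6, the counterpart of fly Diego, had 6.08, 7.96 and 6.53 CPM in p63KO and 18.7, 24.6 and 21.6 CPM in control libraries (log2 fold change -1.66, SE 0.16, adjusted p = 5.33e-05, edgeR). None of these 3 genes overlapped between the groups.

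Prickle3 (log2 fold change -1.45), Vangl1 (-0.54), Ptk7 (-0.42), Scrib (-0.40), Dvl2, Fzd3 and the Wnt receptor Ror2 also fell. Vangl2, the main Vang gene of the mouse, had a log2 fold change of -0.14 that did not pass (adjusted p = 0.251, edgeR). The call of Fzd3, at a log2 fold change of -0.33, was lost without p63KO replicate 1 or control replicate 2, at adjusted p of 0.0622 and 0.0537. Ror2 had a log2 fold change of -3.29 that rested in size on control replicate 3, with 26.0 CPM against 3.71 and 3.22 CPM in the other controls, and it was -1.63 without that library. The Ror2 call was also lost without p63KO replicate 1 or 3, at adjusted p of 0.06 and 0.0632, and with limma-voom, at 0.126.

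Among 14 listed partners of Fat and Dachsous 13 were tested, of which 1 rose, 5 fell and 7 did not pass, with a median log2 fold change of -0.04. That is a called share of 46.2%, against 29.6% of all tested genes. Fjx1, the counterpart of the fly kinase Four-jointed that tunes the binding of Fat to Dachsous, had 11.2, 13.2 and 13.8 CPM in p63KO and 41.2, 45.3 and 48.7 CPM in control libraries (log2 fold change -1.83, SE 0.11, adjusted p = 4.18e-06, edgeR). Amotl1, an angiomotin that binds Yap, had 358.3, 419.3 and 433.6 CPM in p63KO and 831.9, 730.4 and 640.6 CPM in control libraries (log2 fold change -0.86, SE 0.11, adjusted p = 0.000266, edgeR). Wwc1, which codes for the Hippo scaffold Kibra, had 129.1, 121.7 and 124.4 CPM in p63KO and 73.8, 70.8 and 80.8 CPM in control libraries (log2 fold change 0.73, SE 0.07, adjusted p = 4.76e-05, edgeR). The groups were apart at all 3 genes. Lix1l also fell, but its call was lost on leaving out any of 5 libraries.

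**Figure D2:**
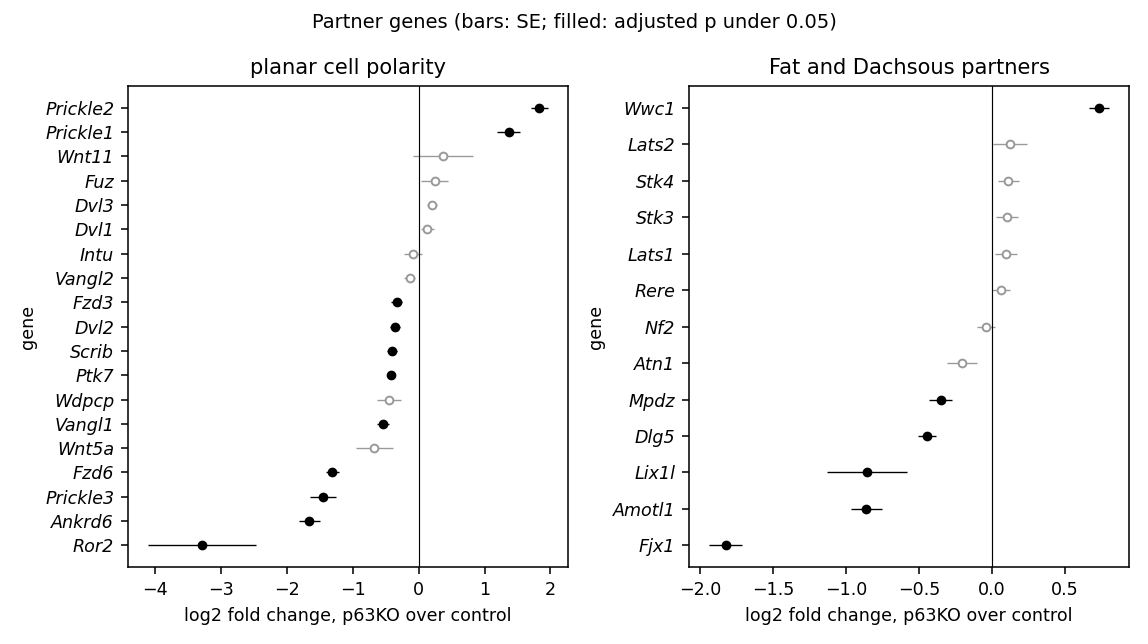
Log2 fold change of p63KO over control (points, with bars of 1 standard error) for 19 planar cell polarity genes and 13 tested partners of Fat and Dachsous. Prickle2 at 1.83 and Prickle1 at 1.37 lie on the side higher in p63KO, and Fjx1 at -1.83, Ankrd6 at -1.66 and Fzd6 at -1.31 on the lower side.

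Among the classical cadherins other than Cdh1, Cdh2 and Cdh3, 15 were listed and 9 tested, of which 4 fell, 1 rose and 4 did not pass. The called share was 55.6%, against 29.6% of all tested genes. It counts Cdh6 and Cdh20, whose calls support nothing. Cdh11, a type II cadherin known from mesenchymal cells, had 164.9, 153.0 and 160.9 CPM in p63KO and 324.6, 217.9 and 270.7 CPM in control libraries, with no overlap (log2 fold change -0.76, SE 0.12, adjusted p = 0.00146, edgeR). Cdh8, a type II cadherin known from neural circuits, had 1.06, 0.762 and 0.668 CPM in p63KO and 3.28, 7.15 and 2.71 CPM in control libraries, with control replicate 2 the highest and no overlap (log2 fold change -2.38, SE 0.43, adjusted p = 0.00276, edgeR). Cdh4, the retinal cadherin, had 8.26, 7.83 and 8.24 CPM in p63KO and 10.7, 13.4 and 13.5 CPM in control libraries (log2 fold change -0.63, SE 0.15, adjusted p = 0.0124, edgeR).

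Cdh6, known as the kidney cadherin, was at 7, 2 and 3 counts in p63KO and 29, 15 and 18 counts in control libraries, with no overlap. It passed the filter only through the control libraries, and its log2 fold change of -2.06 (SE 0.52) is given as a description. Its call was lost without p63KO replicate 2 or 3 or control replicate 1, at adjusted p of 0.0565, 0.0573 and 0.067. Cdh20, a type II cadherin that passed only through p63KO, had 26, 10 and 9 counts in p63KO and 0, 1 and 0 counts in control libraries. The depth-scaled ratio of its summed counts was 55.4, with an exact 95% interval of 9.44 to 2235, which covers counting error only and not the spread between libraries. Cdh24 overlapped between the groups, with 53.5, 54.8 and 46.5 CPM in p63KO and 58.8, 53.8 and 40.8 CPM in control libraries (log2 fold change 0.01, SE 0.13, adjusted p = 0.955, edgeR). Cdh5, the cadherin of blood vessels, was below 2 CPM in every library (log2 fold change -0.82, SE 0.68, adjusted p = 0.418, edgeR). Endothelial markers summed to 6.58 to 9.65 CPM in p63KO and 6.55 to 9.76 CPM in control libraries, with 5 of 8 tested and 0 called by edgeR, DESeq2 or limma-voom or at an unadjusted p under 0.05.

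Of the classical cadherins below the filter, Cdh12 and Cdh22 were uneven too. Cdh9, Cdh15 and Cdh19 overlapped between the groups, and Cdh7 had no count. Cdh12 had 1, 0 and 1 counts in p63KO and 12 counts in each control library, a depth-scaled ratio of 0.0684 with an exact 95% interval of 0.00797 to 0.266, again for counting error only. Cdh22 had 11, 1 and 2 counts in p63KO and 0 counts in all 3 control libraries, so that p63KO replicate 1 held 11 of its 14 counts. Its depth-scaled ratio was 5.74 with the control group set to a floor of 3 counts in sum. Without that floor the exact 95% lower limit was 4.08, for counting error only. Cdh12 and Cdh22 both passed the threshold when no filter on low counts was applied. Markers of the mesenchyme were high in p63KO in sum (1252 to 1648 CPM, against 444.0 to 523.7 CPM in control libraries), through Dcn with 1342, 1053 and 1272 CPM in p63KO and 152.4, 211.1 and 113.5 CPM in control libraries. Of the 8 tested mesenchyme markers Dcn and Twist1 rose, and Col1a1, Col3a1, Pdgfra and Pdgfrb fell. The epithelial markers summed to 3755 to 3867 CPM in p63KO and 3228 to 3454 CPM in control libraries. Muscle markers summed to 29.7 to 53.3 CPM in p63KO and 76.4 to 171.2 CPM in control libraries, with 4 of 5 tested lower, and blood markers to 11.2 to 24.6 CPM in p63KO and 2.69 to 39.0 CPM in control libraries, with 0 called by edgeR, DESeq2 or limma-voom or at an unadjusted p under 0.05. The part of mesenchymal and muscle cells in the levels of Cdh11 and other members was not tested.

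The atypical cadherins had 6 members, of which 3 were tested and 0 called by edgeR, with 2 at an unadjusted p under 0.05, and 0 called by DESeq2 or limma-voom. Of all tested genes edgeR called 29.6%. Cdh13, the lipid-anchored T-cadherin, had 1.89, 1.39 and 1.19 CPM in p63KO and 3.11, 2.30 and 2.24 CPM in control libraries (log2 fold change -0.77, SE 0.29, adjusted p = 0.0831, edgeR). Cdh23, a tip-link protein of hair cells in the inner ear, had 0.826, 0.623 and 0.668 CPM in p63KO and 0.43, 0.204 and 0.294 CPM in control libraries (log2 fold change 1.18, SE 0.47, adjusted p = 0.0957, edgeR). Cdh13 was without overlap, although it did not pass. Cdh23 passed the low-count filter only through p63KO libraries, so its lack of overlap was fixed by the filter. Its values are given as a description. Cdh17, the liver-intestine cadherin, had 1.71, 2.29 and 4.08 CPM in p63KO and 0.537, 0.868 and 20.6 CPM in control libraries. Control replicate 3 was above all other libraries and the other 2 controls were below all p63KO libraries. The log2 fold change of Cdh17 was -1.44 (SE 1.11, adjusted p = 0.384, edgeR), and without control replicate 3 it was 1.91 with an adjusted p of 0.0154. Cdx2 and Hnf4a, transcription factors of the intestine, were at 54.1 and 48.6 CPM in that library and at most at 1.12 CPM in any other library.

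Of 11 non-clustered protocadherins 8 were tested, of which 3 rose, 2 fell and 3 did not pass. That is a called share of 62.5%, against 29.6% of all tested genes. Pcdh8, a protocadherin regulated by activity at synapses, had 50.5, 29.5 and 34.9 CPM in p63KO, against 6.44, 2.25 and 3.24 CPM in control libraries. The groups were far apart, with a 9.63-fold difference (log2 fold change 3.27, SE 0.35, adjusted p = 0.000105, edgeR). Pcdh10, a delta protocadherin that recruits the actin-nucleating WAVE complex, had 4.78, 4.71 and 3.64 CPM in p63KO and 1.72, 2.45 and 1.59 CPM in control libraries (log2 fold change 1.18, SE 0.26, adjusted p = 0.00811, edgeR). Pcdh9, another delta protocadherin, had 4.31, 3.46 and 3.04 CPM in p63KO and 1.99, 0.919 and 0.942 CPM in control libraries (log2 fold change 1.49, SE 0.35, adjusted p = 0.0111, edgeR). The groups did not overlap at either gene, and the Pcdh9 call was narrowly lost without p63KO replicate 1 (adjusted p = 0.0504).

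Pcdh1 and Pcdh18 were the non-clustered protocadherins that fell. Pcdh1, known from airway epithelium, had 28.3, 21.3 and 25.8 CPM in p63KO and 55.2, 29.6 and 52.7 CPM in control libraries, with control replicate 2 close to the p63KO libraries (log2 fold change -0.86, SE 0.22, adjusted p = 0.0157, edgeR). Its call was lost without p63KO replicate 2 or 3 or control replicate 1, at adjusted p of 0.0635, 0.052 and 0.0553. Pcdh18 had 28.9, 27.7 and 24.6 CPM in p63KO and 45.6, 37.3 and 37.5 CPM in control libraries (log2 fold change -0.57, SE 0.11, adjusted p = 0.0038, edgeR). Pcdh7, another delta protocadherin, overlapped between the groups, with 74.8, 64.7 and 70.2 CPM in p63KO and 62.5, 71.6 and 58.4 CPM in control libraries (log2 fold change 0.12, SE 0.09). Pcdh19, mutated in a human epilepsy, had 11.6, 10.3 and 15.6 CPM in p63KO and 27.1, 14.8 and 14.9 CPM in control libraries and did not pass (adjusted p = 0.113, edgeR).

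**Figure D3:**
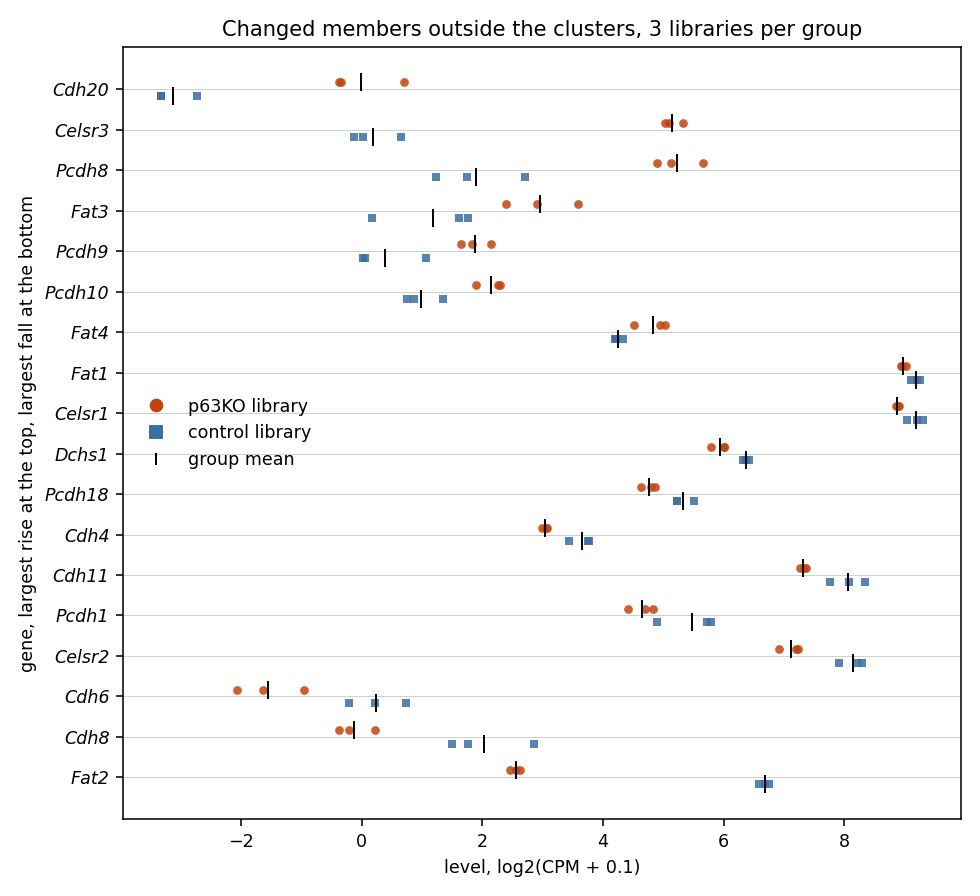
Level of the 18 called members outside the protocadherin clusters in each library, as log2(CPM + 0.1), with p63KO libraries as circles above control libraries as squares. The groups lie far apart at Celsr3 and Pcdh8, where p63KO is higher, and at Fat2, where it is lower, while the place of Cdh20 depends on the 0.1 added to control libraries with 0 counts.

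Levels of different members outside the protocadherin clusters were set in order per kb of exon sequence, and that order differed between the groups. Celsr1 led in both, with 43.2 CPM per kb in p63KO and 53.6 CPM per kb in control epithelium. Fat1 came next in p63KO at 33.6 CPM per kb, against 38.9 CPM per kb in control epithelium, where Cdh11 came second at 48.0 CPM per kb and stood at 28.3 CPM per kb in p63KO. Fat2 was at 0.397 CPM per kb in p63KO and 7.04 CPM per kb in control epithelium, a control level beside those of Dchs1 (7.68 CPM per kb) and Pcdh18 (7.75 CPM per kb). Pcdh8 was at 9.57 CPM per kb in p63KO and 0.994 CPM per kb in control epithelium. Celsr3 reached 3.07 CPM per kb in p63KO, below Celsr2 at 13.1 CPM per kb, and stood at 0.0923 CPM per kb in control epithelium, where Celsr2 was at 26.8 CPM per kb.

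Both calls within the clusters were C-type isoforms of the gamma protocadherins, and both were lower in p63KO. Each gamma isoform joins a variable exon of its own to constant exons shared by the whole cluster. The sources used here do not say how the authors' counting treated reads of the shared exons, so the assignment of reads to single isoforms is uncertain. Counts per library ranged from 8 for Pcdhgc5 to 1876 for Pcdhgc3, so reads of the shared exons were not credited in full to every isoform. Pcdhgc3, the C-type isoform known to act outside the nervous system as well, had 38.7, 42.2 and 34.7 CPM in p63KO and 83.2, 95.8 and 74.9 CPM in control libraries. The groups were apart, and the p63KO level was 45.6% of control (log2 fold change -1.13, SE 0.11, adjusted p = 5.01e-05, edgeR). Pcdhgc4, which in the mouse is needed for the survival of inhibitory neurons, had 2.07, 2.15 and 1.63 CPM in p63KO and 5.48, 6.08 and 5.83 CPM in control libraries, again apart (log2 fold change -1.57, SE 0.21, adjusted p = 0.00052, edgeR). Pcdhgc5 overlapped, with 0.59, 0.831 and 0.668 CPM in p63KO and 1.29, 1.28 and 0.471 CPM in control libraries (log2 fold change -0.55, SE 0.46, adjusted p = 0.418, edgeR).

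All 19 A- and B-type gamma isoforms were tested and 0 were called by edgeR, by DESeq2 or by limma-voom, with 0 at an unadjusted p under 0.05 in edgeR. Of all tested genes edgeR called 29.6%. The log2 fold changes of these 19 isoforms ran from -0.42 to 0.47. Summed over these 19 isoforms the level was 110.6, 111.6 and 110.6 CPM in p63KO and 123.2, 111.6 and 104.9 CPM in control libraries, 98.0% of control in the mean. Summed over the 3 C-type isoforms it was 41.4, 45.2 and 37.0 CPM in p63KO and 90.0, 103.2 and 81.2 CPM in control libraries, 45.0% of control. The C-type sums were apart and the A- and B-type sums overlapped. Pcdhgc3 took 25.5, 26.9 and 23.5% of all gamma counts in p63KO and 39.0, 44.6 and 40.2% in control libraries, with exact 95% binomial intervals within 21.6 to 28.8% and 37.5 to 46.1%. The mean share was 25.3 ± 1.73% in p63KO and 41.3 ± 2.94% in control epithelium (SD, n = 3 each), at an exact two-sided permutation p of 0.1, the smallest possible.

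**Figure D4:**
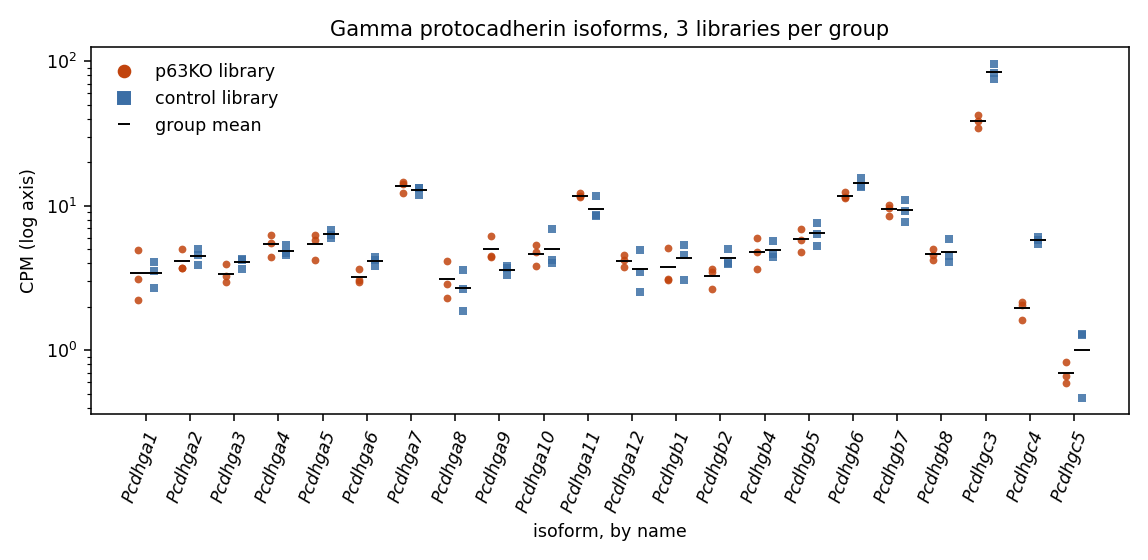
Level of the 22 gamma protocadherin isoforms in each library, in CPM on a log axis, with p63KO libraries as circles and control libraries as squares. Pcdhgc3 and Pcdhgc4 are separated between the groups, at 38.6 against 84.6 CPM in the mean for Pcdhgc3, while none of the A- and B-type isoforms was called.

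The beta protocadherins, which are single-exon genes without a shared constant part, gave no call. Of 22 listed genes 19 were tested and 0 called by edgeR, DESeq2 or limma-voom, with 1 at an unadjusted p under 0.05 in edgeR. Of all tested genes edgeR called 29.6%. The summed level was 61.2 ± 4.04 CPM in p63KO and 59.0 ± 2.61 CPM in control epithelium (SD, n = 3 each). Pcdhb17 had 10.4, 11.1 and 10.8 CPM in p63KO and 9.56, 9.50 and 9.42 CPM in control libraries (log2 fold change 0.18, SE 0.13, adjusted p = 0.345, edgeR). Pcdhb3 had 3.48, 2.22 and 2.15 CPM in p63KO and 1.40, 1.63 and 1.59 CPM in control libraries (log2 fold change 0.77, SE 0.29, adjusted p = 0.0787, edgeR). Neither gene overlapped and neither passed. The median standard error of the tested beta genes was 0.33, so that small changes of single genes were not detectable at this depth. None of the 15 listed alpha protocadherins passed the filter. Their summed counts were 45, 27 and 28 in p63KO and 22, 17 and 20 in control libraries, or 2.20 ± 0.41 CPM in p63KO and 1.08 ± 0.18 CPM in control epithelium (SD, n = 3 each), with no test made of the sum.

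Of 16 tested genes that regulate promoter choice in the clusters, 2 rose, 1 fell and 13 did not pass. The called share was 18.8%, against 29.6% of all tested genes. Ctcf, which folds the clusters, had a log2 fold change of -0.06, and the cohesin genes Rad21 (0.12), Smc1a (-0.10) and Smc3 (-0.03) and the repressor Smchd1 (-0.02) did not pass either. Dnmt3b, the methyltransferase of protocadherin promoters in the mouse embryo, was higher (log2 fold change 0.41, SE 0.09, adjusted p = 0.00731, edgeR), as was Dnmt3a (0.27, SE 0.06, adjusted p = 0.00831, edgeR). Rest, a repressor of neuronal genes, had 48.1, 50.3 and 57.0 CPM in p63KO and 73.1, 73.3 and 64.1 CPM in control libraries, without overlap (log2 fold change -0.44, SE 0.09, adjusted p = 0.00439, edgeR).

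Of the catenins and related linkers of cadherins to actin, 11 were listed and 10 tested, with 2 higher, 2 lower and 6 not past the threshold. That is a called share of 40%, against 29.6% of all tested genes. Jup, the catenin of desmosomes and adherens junctions, had 246.8, 208.9 and 217.1 CPM in p63KO and 386.6, 353.5 and 373.2 CPM in control libraries (log2 fold change -0.73, SE 0.08, adjusted p = 9.11e-05, edgeR). Ctnna2, the alpha-catenin of neurons, had 6.96, 4.43 and 7.43 CPM in p63KO and 1.13, 1.12 and 1.41 CPM in control libraries (log2 fold change 2.36, SE 0.28, adjusted p = 0.000202, edgeR). Both were apart between the groups. The calls of Vcl (log2 fold change 0.20) and Ctnnb1 (-0.26) were each lost on leaving out any of 5 libraries, at adjusted p of 0.0573 to 0.117 for Vcl and 0.0683 to 0.118 for Ctnnb1. Ctnnd1, which codes for p120-catenin, did not pass (adjusted p = 0.924, edgeR).

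Other genes with cadherin repeats and the WAVE complex completed the comparison. Of 10 tested genes in the first list 4 rose and 3 fell, a called share of 70%, against 29.6% of all tested genes. Ret, the receptor of glial cell line-derived neurotrophic factor, had a log2 fold change of 4.84 (SE 0.18), and Clstn3, a synaptic calsyntenin, of 0.85 (SE 0.11). The summed counts of Cdhr1, a photoreceptor cadherin, were 104 in p63KO and 6 in control libraries. Cdhr1 is counted among the 4 that rose but passed the filter only through p63KO libraries, so its call supports nothing. Dsg3, a desmosomal cadherin of stratified epithelia, had a log2 fold change of -3.64 (SE 0.46). It had 7, 5 and 9 counts in p63KO and 142, 57 and 124 counts in control libraries. Dsg3 is counted among the 3 that fell but needed the control libraries to pass the filter, so its fall is given as a description. The remaining calls depended on single libraries: Clstn2 (1.08) was lost without p63KO replicate 1 or 3, at adjusted p of 0.0683 and 0.0604, Clstn1 (-0.64) without p63KO replicate 2 or 3, at 0.0566 and 0.0571, and Dsc2 (-1.11) without p63KO replicate 1 or 2, at 0.0663 and 0.0687. Of 9 tested genes of the WAVE complex, Cyfip2 (0.54, SE 0.06), Wasf1 (0.53, SE 0.07) and Abi2 (0.45, SE 0.08) rose, and Cyfip1 (-0.21, SE 0.07) fell. Called were 44.4% of these 9 genes, against 29.6% of all tested genes. The Cyfip1 call was lost on leaving out any of 5 libraries, at adjusted p of 0.068 to 0.197.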

How the data were processed

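RNA was purified with PicoPure, libraries were made with TruSeq and read for 100 bases, per the labels' protocols, in which both single-end and paired-end sequencing are named. The tools were TopHat2 2.1.0, bcl2fastq 1.8.4 and DESeq2, with the build mm9, per the submitters' processing notes. Read counter, annotation and strandedness are details not given in the sources used here. Thus reads of overlapping or antisense genes cannot be told apart. The authors deposited raw counts per gene symbol with no normalization. Columns were tied to samples by the labels.

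Counts were scaled by TMM and tested with edgeR 4.0.16 (limma 3.58.1, R 4.3.3) in all 6 libraries, after filterByExpr (minimum count 10, minimum total 15), as a quasi-likelihood test of p63KO over control. P-values were adjusted by Benjamini-Hochberg over the 13849 tested genes and called at 0.05. Standard errors are the absolute log2 fold change over the root of the F statistic. Replicates of a group differed by more than sampling noise, with a biological coefficient of variation of 12.7%. Named genes were up to 10 called members per direction, by size of change, with no overlap and a higher group of at least 2 CPM, all tested Fat, Dchs and Celsr genes, the member with the lowest p and that with the most counts in each other subfamily, and the 3 genes with the lowest p in each partner list. Other genes, such as Cdh6, Cdh12, Cdh20 and Cdh22, were singled out after their values were seen. The members and all lists were chosen with earlier results of these data known. Lengths are exon unions of GENCODE vM21 (GRCm38), not the authors' annotation. Alternatives were RLE and upper quartile scaling, DESeq2 1.42.0, limma-voom, other filters, robust dispersions, a replicate block, stricter thresholds and each library left out.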

Additional observations from a re-analysis of the deposited data

How the results depend on the processing

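The same 20 members were called under RLE and upper quartile scaling, DESeq2, limma-voom, robust dispersions and the replicate block. With no filter 21 members were called, of which 19 were shared (Fat1 was lost, Cdh12 and Cdh22 were gained), and with a filter of 1 CPM in 3 libraries 18 (Cdh6 and Cdh20 were lost). At an adjusted p under 0.01, 4 members were higher and 8 lower, and 1353 of all genes were higher and 1227 lower. With at least 2-fold change also required, 6 members were higher and 6 lower, and 928 of all genes were higher and 684 lower. Leaving out each library in turn gave 6 to 8 members higher and 10 to 13 lower, 1650 to 1965 of all genes higher and 1500 to 1806 lower, and a Trp63 log2 fold change of -3.14 to -2.96. Cdh17 ran from -1.996 to 1.91 with each library left out, and its sign reversed without control replicate 3 (1.91) and with limma-voom (0.29). For Cdh17 control replicate 3 held 349 of the 376 control counts, and what sets that library apart was not tested. Of the 23 members named by rule 12 kept their sign and their side of the threshold in every alternative.

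The labels number the replicates 1 to 3 in both groups. Deviations from the group means correlated at 0.22, 0.277 and 0.061 for same-numbered libraries, and at -0.236 to 0.027 for the others. Every library thus correlated best with its own number. The main test did not pair the libraries, and whether the numbers mark pairs was not tested. With the replicate block 2397 of all genes were higher and 2381 lower, 7 members higher and 13 lower, and Trp63 was at -3.08. The 30 untested members did not pass the low-count filter. Their highest total was 67 counts (Pcdhb13), while the lowest total of a tested member was 46 counts (Cdh20). Whether depth alone kept them out was not tested.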
